A study of Arabidopsis thaliana with 6 samples.

Results

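The 38 transcripts described here belong to receptor kinases with a G-type (S-domain) lectin ectodomain, and they were followed in Arabidopsis thaliana seedlings after treatment with a bacterial fatty acid. They were taken by locus code from the 28259 loci of the tables: LORE (AT1G61380, SD1-29), its neighbours on chromosome 1 and other kinases of the same kind. The plants were of the Columbia (Col-0) ecotype, and the labels name no transgene or mutation in either group. Seedlings 10 days old, raised with 10 h of light and 14 h of dark, spent a night in water and then received for 8 h either 3-hydroxydecanoic acid (3-OH-C10:0) or, as the control, the solvent dimethyl sulfoxide, called DMSO below. The labels give the dose as 5 microM in one place and as 5 mM in another, so it is not settled here. Each group held 3 RNA-seq libraries of whole seedlings. The study addresses how a receptor-like cytoplasmic kinase, RIPK, acts on NADP-malic enzyme 2 to supply NADPH for reactive oxygen species.

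G-type lectin receptor kinases carry, outside the cell, a mannose-binding type lectin domain followed by the S-locus glycoprotein region, and inside it a serine/threonine kinase. The family is named after the S-locus receptor kinase with which Brassica stigmas recognise their own pollen. LORE is the family member through which Arabidopsis senses medium-chain 3-hydroxy fatty acids such as 3-OH-C10:0, and its activation leads to a burst of reactive oxygen species and to defence gene expression. The labels name no ligand for the other members.

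Levels are FPKM, fragments per kilobase of transcript scaled to the size of the library, as deposited, and can be compared between genes. A log2 fold change sets treated against DMSO and is followed by its standard error, with adjusted p from edgeR's quasi-likelihood test and Benjamini-Hochberg adjustment over 19768 tested loci. A transcript is said to have risen or fallen where the adjusted p was under 0.05. The libraries held 18064723 to 27131500 estimated counts, and 3 counts in a library corresponded to 0.111 to 0.166 CPM, counts scaled to library size without regard to length. Nothing in the labels says that the replicates were grown separately, so p-values measure the spread between these libraries only, and intervals cover counting error only. Across genes, Pearson r on the log2 CPM scale was 0.990 to 0.994 between libraries of a group, and each same-group pair differed by more than counting noise (mean chi-square per gene 4.67 to 22.4). Treated replicate 3, the deepest library, stood apart from the other treated libraries (22.4 and 22.2, against 4.67 between those). The sum of its leaf mesophyll markers was 16576 CPM, against 11787 and 11456 CPM. Of these markers, LHCB1.1 (107 CPM, against 133 and 253 CPM) and LHCB2.1 (95.5 CPM, against 171 and 280 CPM) were lowest there. The other mesophyll markers were highest there. This library also had the lowest treated sum over the members. Without it 22 members rose and 7 fell, and LORE had a log2 fold change of 2.00. DMSO replicate 1 differed more from the other DMSO libraries (13 and 11.7) than these did from each other (5.99). Markers of leaf mesophyll, root, guard cells and vascular tissue were all detected in every library. In whole seedlings, fewer cells of a type and less RNA per cell cannot be told apart.

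Of the 38 members, 22 rose, 10 fell, 4 were tested without passing and 2 had too few counts to be tested. Among all loci tested, 35.6% rose and 35.8% fell. The tested members had a median log2 fold change of 1.14, against -0.04 over all tested loci, and ran from -1.26 to 6.26. At least an 8-fold rise was seen in 9 members, where 3.96% of all tested loci rose that much. The FPKM of the 2 groups did not overlap for 33 of the 36 tested members, against 75.7% of all tested loci. Of the 36, 5 had fewer than 3 DMSO libraries with 10 counts or more and entered the test through the treated libraries. They could hardly have been called anything but higher. They also enter the median and the range, and the 6.26 is one of theirs. The counts, the median and the range above therefore support nothing on their own. The 5 are AT1G61440, AT1G61550, AT1G61610, ARK1 and RLK1, and all 5 are among the 9 members with at least an 8-fold rise.

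**Figure D1:**
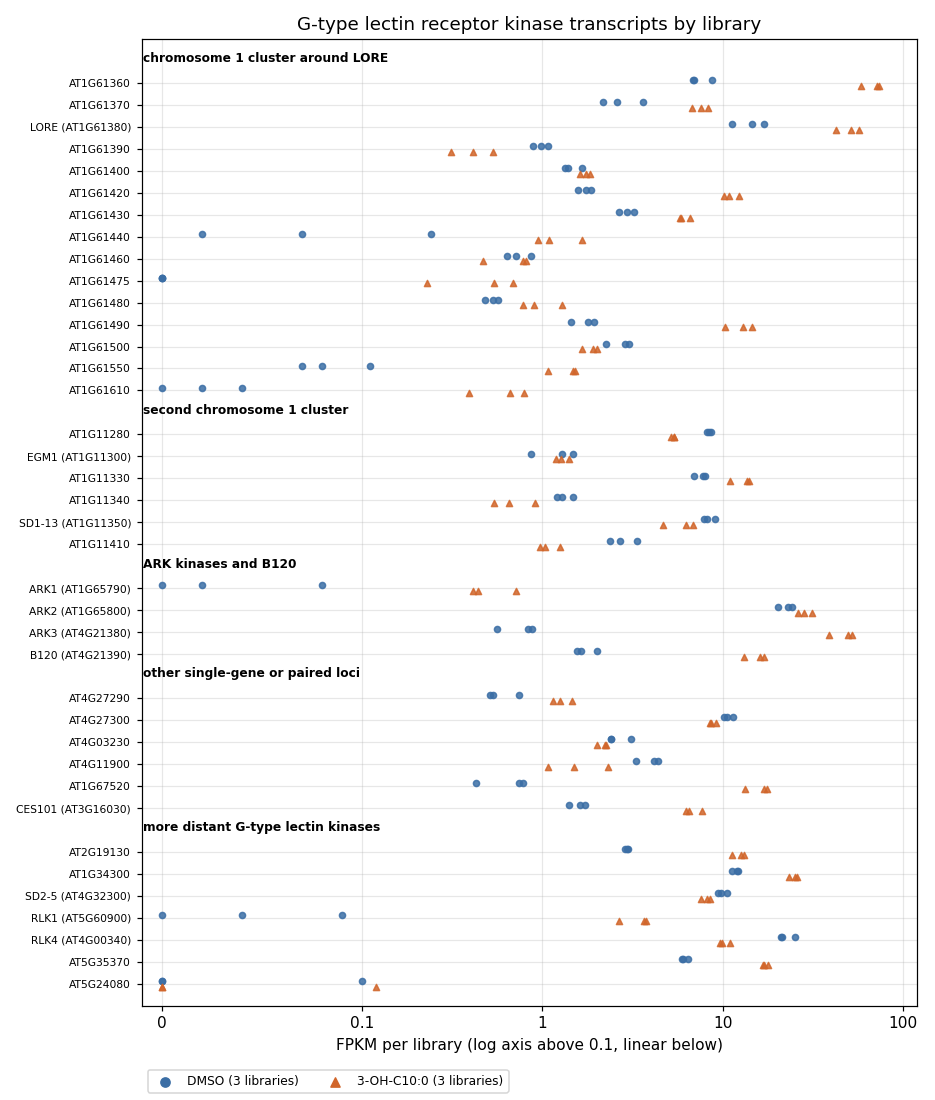
FPKM of each of the 38 members in every library (x axis, logarithmic above 0.1 and linear below), with DMSO as blue circles and 3-OH-C10:0 as orange triangles. ARK3 went from under 1 FPKM to 39.09 or more, whereas RLK4 lay at 21.20 or more in DMSO and at 11.01 or less after treatment.

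LORE, the receptor of the elicitor, was among the most abundant members before treatment and rose further. It stood at 11.24, 17.01 and 14.57 FPKM in DMSO replicates 1 to 3 and at 51.21, 57.33 and 42.80 FPKM in treated replicates 1 to 3. The groups did not overlap, and DMSO replicate 1 was the lowest of its group. The log2 fold change was 1.90 ± 0.168 (adjusted p = 1.3e-05), and it lay between 1.74 and 2.06 when single libraries were left out. By the TAIR10.1 annotation the gene spans 22645923 to 22650072 of chromosome 1, minus strand.

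Apart from AT1G61610, the members in the neighbourhood of LORE form a tandem array. The 15 members grouped as this cluster spread over 99.2 kb of chromosome 1, from 22637688 to 22736858. Of them 14 lie on the minus strand like LORE. AT1G61610, at the end of the span on the plus strand, was 59.9% identical to LORE in coding sequence. Its closest member was B120 on chromosome 4 (66.9%). The others were between 72% and 83.8% identical to LORE, with AT1G61390, the next gene, the closest. To show how the copies differ, a stretch of the first coding exon with the likeness typical of the whole coding sequence is given for LORE, for its closest copy, which fell, and for the cluster member with the highest level, which rose. Capitals mark bases that differ from LORE, all 3 stretches are read 5′ to 3′ on the minus strand of TAIR10.1, and positions are those of the chromosome.
LORE, chr1:22648923-22649012: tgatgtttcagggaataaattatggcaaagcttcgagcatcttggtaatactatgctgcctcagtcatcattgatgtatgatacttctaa
AT1G61390, chr1:22653098-22653187: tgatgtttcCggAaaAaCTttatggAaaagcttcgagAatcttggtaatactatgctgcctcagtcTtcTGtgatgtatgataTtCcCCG
AT1G61360, chr1:22640499-22640588: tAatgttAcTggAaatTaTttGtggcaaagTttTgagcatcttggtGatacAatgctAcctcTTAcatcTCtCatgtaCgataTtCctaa
Over these 90 bases AT1G61390 differs from LORE at 15 positions and AT1G61360 at 21. No stretch of 50 bases in the exons of LORE, AT1G61360 or ARK3 occurs elsewhere in the genome, and for AT1G61390 0.0639% do. The read length was not given in the sources used here.

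Of the 15 cluster members, 10 rose, 2 fell, 2 did not pass and 1 was not tested. Among those that rose, AT1G61440, AT1G61550 and AT1G61610 entered the test through the treated libraries. The counts of this and the other groups stand beside 35.6% of all tested loci that rose and 35.8% that fell. AT1G61360, a lectin kinase just downstream of AT1G61370 and LORE, became the most abundant member of the whole set. Its level was 6.84, 8.71 and 6.96 FPKM in the DMSO libraries and 72.27, 73.40 and 58.78 FPKM in the treated libraries (log2 fold change 3.25 ± 0.133, adjusted p = 9.5e-09). All 3 treated libraries were far above all 3 DMSO libraries. The ratio of AT1G61360 to LORE was 0.609, 0.512 and 0.478 in DMSO and 1.41, 1.28 and 1.37 after treatment, so their order was turned round in every library (p = 0.1, two-sided exact permutation test; with 3 against 3 libraries no smaller value exists). AT1G61360 and AT1G61370 overlap by 157 bases in the annotation, and reads there could be assigned to either.

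AT1G61390, the closest copy of LORE and the gene directly upstream of it, moved the other way. It had 1.08, 0.89 and 0.98 FPKM in DMSO and 0.41, 0.31 and 0.53 FPKM after treatment (log2 fold change -1.13 ± 0.252, adjusted p = 0.00205). The groups did not overlap, at a level that was low in both. Relative to LORE it went from 0.0719 ± 0.0222 to 0.0086 ± 0.00353 (SD, n = 3; p = 0.1, two-sided exact permutation test, again the limit). AT1G61500 was the other member that fell (log2 fold change -0.47 ± 0.164, adjusted p = 0.0241). That call was lost in 4 of the 6 fits that leave out a library, namely DMSO replicate 2 (0.0934) or 3 (0.0682) or treated replicate 2 (0.0566) or 3 (0.0789), and in DESeq2 (0.0716).

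Among the cluster members that rose, AT1G61490 went from 1.73 ± 0.251 to 12.6 ± 2.12 FPKM and AT1G61420 (log2 fold change 2.77 ± 0.116) from 1.73 to 11.1 FPKM (mean ± SD, n = 3). AT1G61420 overlaps an antisense locus, AT1G61415, by 508 bases, which went from 10 to 75 counts (log2 fold change 2.71). AT1G61420 also overlaps AT1G08387 on the opposite strand by 1550 bases, a locus for which no counts were given. Without known strandedness, reads of the shared parts cannot be told apart. AT1G61370 (log2 fold change 1.52), AT1G61430 (1.12) and AT1G61480 (0.97) rose less. AT1G61440, AT1G61550 and AT1G61610 were close to silent in DMSO. AT1G61610, the one member on the plus strand, had 2, 0 and 1 counts in DMSO and 20, 36 and 45 counts in the treated libraries. The ratio of the sums was 33.3 (95% counting interval 11.1 to 164). Its log2 fold change was 4.89 in the fit to all libraries and 5.76 when DMSO replicate 1 was left out. AT1G61550 rose from 0.0867 ± 0.0208 to 1.36 ± 0.240 FPKM. AT1G61440 rose from 0.110 ± 0.115 to 1.23 ± 0.370 FPKM, and its fitted log2 fold change went from 3.53 to 4.88 without DMSO replicate 2, which held 12 counts where the other DMSO libraries held 3.15 and 1. AT1G61475, annotated as partial with 639 coding bases, had no count in DMSO and 7, 8 and 4 counts in the treated libraries. With the DMSO group set to 3 counts in all, this is at least 6.27-fold higher, and it was not tested. AT1G61400 (0.33 ± 0.168, adjusted p = 0.0997) and AT1G61460 (-0.04 ± 0.271, adjusted p = 0.894) did not pass.

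**Figure D2:**
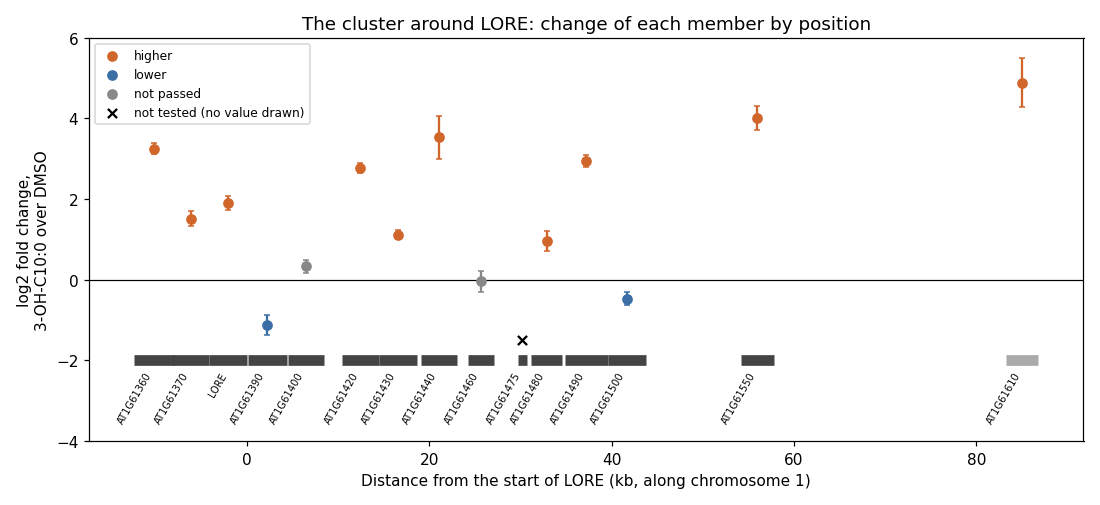
Log2 fold change ± standard error of the cluster members (y axis) by distance from the start of LORE in kb (x axis), orange for higher, blue for lower and grey for not passed; bars at -2 are the genes, dark for the minus strand and pale for plus. AT1G61390 (-1.13) lies between LORE (1.90) and AT1G61400 (0.33).

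Within the span of the cluster, 14 further loci of the tables are not lectin kinases of the set. Of the 8 that could be tested, 2 rose and 4 fell, beside 35.6% and 35.8% of all tested loci. A difference between these few loci and the members was not tested.

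As a whole the cluster's summed level went from 33.3, 43.6 and 35.9 FPKM in DMSO to 171.4, 181.2 and 143.1 FPKM after treatment. It held 22.7% ± 2.82 of the summed FPKM of all 38 members in DMSO and 41.6% ± 1.63 after treatment (SD, n = 3). LORE alone made up 37.8% ± 3.58 of its cluster before and 30.5% ± 1.02 after, whereas LORE and AT1G61360 together went from 57.7% ± 3.04 to 71.7% ± 0.656. For each of these shares the libraries of the groups did not overlap.

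**Figure D3:**
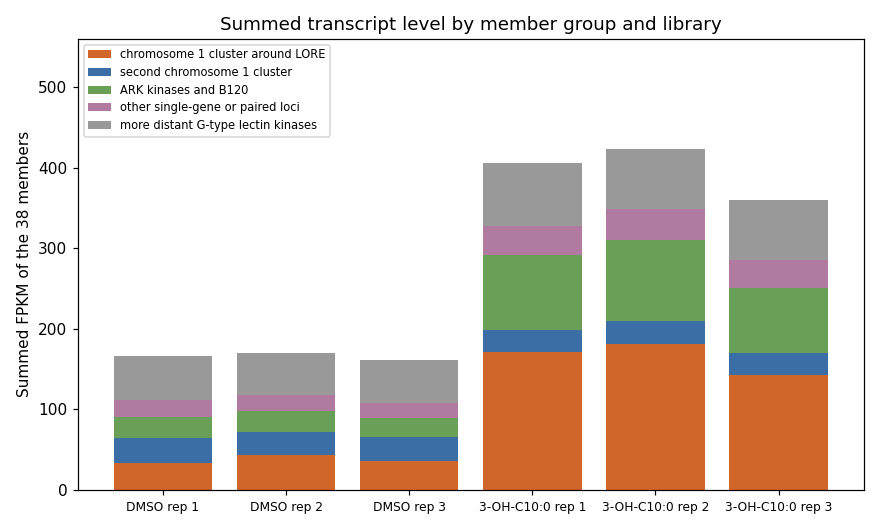
Summed FPKM of the 38 members in each library (y axis, stacked bars from 0), coloured by group of members. The total was 161.0 to 170.0 in DMSO and 360.5 to 423.8 after treatment, and the LORE cluster and the ARK kinases with B120 took up most of the difference.

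The second cluster on chromosome 1, 6 kinases in 57.2 kb from 3787318 to 3844479, held 1 member that rose, 4 that fell and 1 that did not pass. AT1G11330 was the member that rose, from 7.78, 6.98 and 8.03 FPKM in DMSO to 13.93, 13.64 and 11.03 FPKM (log2 fold change 0.84 ± 0.102, adjusted p = 2.8e-05). Its groups did not overlap. AT1G11410 fell the most, from 3.34, 2.69 and 2.36 FPKM to 0.97, 1.03 and 1.26 FPKM (-1.26 ± 0.18, adjusted p = 9.1e-05). Its 3 treated libraries all lay below its DMSO libraries. AT1G11410 shares 342 bases with AT1G11400 on the same strand, whose counts rose (log2 fold change 0.49).

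AT1G11280, of all members outside the LORE cluster the closest to LORE by coding sequence (76.0% identical), fell from 8.42 ± 0.200 to 5.32 ± 0.144 FPKM (-0.58 ± 0.0838, adjusted p = 9.7e-05). AT1G11340 fell by 0.80 on the log2 scale. SD1-13 (AT1G11350), a calmodulin-binding receptor kinase also called CBRLK1, stood at 9.02, 7.85 and 8.14 FPKM in DMSO and 4.67, 6.28 and 6.84 FPKM after treatment (-0.40 ± 0.132, adjusted p = 0.0179). Leaving out DMSO replicate 1 (adjusted p = 0.0599) or treated replicate 1 (0.0624), the lowest treated library, ended the call. The gene annotated as EGM1 (AT1G11300), named for shoot growth under mannitol stress, did not pass (0.18 ± 0.182, adjusted p = 0.382). The reference notes that its gene model joins neighbouring genes, so its level is uncertain. The summed level of this cluster was 27.9 to 31.2 FPKM in DMSO and 26.7 to 28.2 FPKM after treatment, and these ranges overlap.

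ARK1, ARK2 and ARK3 are the Arabidopsis receptor kinases named as counterparts of the Brassica S-locus receptor kinase, and B120 is the neighbour of ARK3 on chromosome 4. All 4 rose, by amounts that ranged from slight to among the greatest of the set, but ARK1 entered the test through the treated libraries. ARK3 (AT4G21380, minus strand of chromosome 4, 11388827 to 11393226) had 0.88, 0.83 and 0.56 FPKM in DMSO and 49.29, 52.46 and 39.09 FPKM after treatment. This was a rise of 6.03 ± 0.174 on the log2 scale (adjusted p = 1.9e-09), and it took ARK3 from the 27th to the 3rd place by mean FPKM among the 38 members. ARK2 (AT1G65800), which with the ubiquitin ligase PUB9 acts in root responses to low phosphate, was already at 22.99, 24.13 and 20.28 FPKM and reached 26.23, 31.24 and 28.32 FPKM (0.43 ± 0.0954, adjusted p = 0.00202). The ARK2 groups lay close but did not overlap. The ratio of ARK3 to ARK2 went from 0.0334 ± 0.0054 to 1.65 ± 0.251 (SD, n = 3).

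B120 (AT4G21390) rose from 1.73 ± 0.238 to 15.5 ± 1.99 FPKM (3.24 ± 0.131, adjusted p = 6.5e-09). ARK1 (AT1G65790) stayed below 1 FPKM, at 0.08, 0.02 and 0.00 in DMSO and 0.41, 0.71 and 0.44 after treatment. The log2 fold change was 3.96 with all libraries and 5.50 when DMSO replicate 1 was left out. ARK1 and ARK2 are neighbours with 90.9% identical coding sequences, and 19.6% of the 50-base words in the exons of ARK1 also occur elsewhere in the genome. Some of the estimated counts of both were not whole numbers. The small ARK1 level is therefore uncertain beside an ARK2 level many times higher.

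Of the 6 further kinases at single or paired loci, 3 rose, 2 fell and 1 did not pass. AT1G67520 rose the most, from 0.43, 0.74 and 0.78 FPKM to 17.70, 16.98 and 13.23 FPKM (4.68 ± 0.194, adjusted p = 2.0e-08). All treated libraries were well above DMSO. Its closest relative is CES101 (AT3G16030), also known as RFO3 from resistance to the fungus Fusarium oxysporum, which rose from 1.59 ± 0.163 to 6.81 ± 0.798 FPKM (2.18 ± 0.133, adjusted p = 1.4e-07). AT4G11900 fell the most of the 6, from 4.14, 4.36 and 3.30 FPKM to 1.07, 1.5 and 2.32 FPKM (-1.16 ± 0.257, adjusted p = 0.00326). Treated replicate 3 was the highest of the treated libraries there, and the groups did not overlap. AT4G11900 shares 40 bases with AT4G11890 on the opposite strand, which went from 36 to 3553 counts.

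AT4G27290 and AT4G27300 lie tail to tail on opposite strands and share 527 bases. AT4G27290 rose from 0.593 ± 0.127 to 1.29 ± 0.158 FPKM (1.22 ± 0.229, adjusted p = 6.8e-04), whereas its more abundant partner had 11.35, 10.19 and 10.64 FPKM in DMSO and 8.54, 9.18 and 8.66 FPKM after treatment (-0.20 ± 0.0805, adjusted p = 0.0414). That last call was lost without any 1 of the 6 libraries (adjusted p of 0.0605 to 0.119). With all libraries it was also lost with RLE scaling (0.0661), without the filter (0.0652), in DESeq2 (0.206) and with a replicate block (0.0582). Strandedness was not given in the sources used here. Reads of the shared part therefore cannot be told apart. AT4G03230 did not pass (-0.20 ± 0.136, adjusted p = 0.198).

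The 7 kinases grouped as more distant, 57.9% to 61.4% identical to LORE in coding sequence, included 4 that rose, 2 that fell and 1 that was not tested. Identity to LORE does not set this group apart. Members of other groups lay in the same range, such as ARK1 (59.7%), AT1G61610 (59.9%), ARK2 (61%) and AT1G11340 (61.1%). RLK1 (AT5G60900) had 4, 0 and 2 counts in DMSO and 172, 149 and 163 counts after treatment, or 0.09, 0.00 and 0.04 against 3.76, 3.67 and 2.67 FPKM. RLK1 entered the test through the treated libraries, so no p-value is given for it. Its fitted log2 fold change of 6.26 ± 0.408 was above that of ARK3, but rests on 6 DMSO counts. Leaving out DMSO replicate 1 made it 7.20. Leaving out DMSO replicate 2 made it 5.70, below ARK3 at 6.12, and on log2(FPKM + 0.1) it was 4.63, below ARK3 at 5.79. RLK4 (AT4G00340), the most abundant member in DMSO, fell from 25.04, 21.39 and 21.20 FPKM to 9.67, 9.88 and 11.01 FPKM (-1.06 ± 0.0928, adjusted p = 2.2e-06). No treated library came near the DMSO range.

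AT1G34300 stood at 11.20, 11.94 and 12.23 FPKM in DMSO and at 25.82, 23.35 and 25.32 FPKM after treatment (1.16 ± 0.0838, adjusted p = 5.0e-07). AT5G35370 rose from 6.14 ± 0.238 to 17.2 ± 0.607 FPKM and AT2G19130 from 2.94 ± 0.0551 to 12.4 ± 0.967 FPKM (SD, n = 3). SD2-5 (AT4G32300) was at 9.92 ± 0.563 FPKM in DMSO and 8.09 ± 0.453 FPKM after treatment (-0.21 ± 0.0849, adjusted p = 0.0469). Its call was lost without DMSO replicate 2 (0.0611) or 3 (0.132) and without treated replicate 1 (0.0563), 2 (0.188) or 3 (0.0601). With all libraries the SD2-5 call was also lost with RLE scaling (0.069), without the filter (0.0659) and in DESeq2 (0.199). AT5G24080 had 3 counts in DMSO and 5 after treatment and was not tested.

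The order of the members by level changed with treatment. In DMSO the order by mean FPKM began with RLK4 (22.5 ± 2.16), ARK2 (22.5 ± 1.98), LORE (14.3 ± 2.90), AT1G34300 (11.8 ± 0.531) and AT4G27300 (10.7 ± 0.585). RLK4 and ARK2 overlapped in their libraries, and LORE, AT1G34300 and AT4G27300 each overlapped with both of the others. The order within these sets is therefore not resolved by their ranges. Library by library, LORE was above AT1G34300 in each of the 3 DMSO libraries, though barely in replicate 1 (11.24 against 11.20 FPKM). The other orders within the sets changed between libraries. After treatment it began with AT1G61360 (68.2 ± 8.13), LORE (50.4 ± 7.30), ARK3 (46.9 ± 6.99), ARK2 (28.6 ± 2.52) and AT1G34300 (24.8 ± 1.31). The libraries of LORE and ARK3 overlapped, though the ratio of ARK3 to LORE was 0.963, 0.915 and 0.913 in treated replicates 1 to 3. The lowest AT1G61360 library (58.78) was just above the highest LORE library (57.33). Members with a mean over 10 FPKM numbered 5 in DMSO and 13 after treatment, and those under 1 FPKM numbered 13 and 8.

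**Figure D4:**
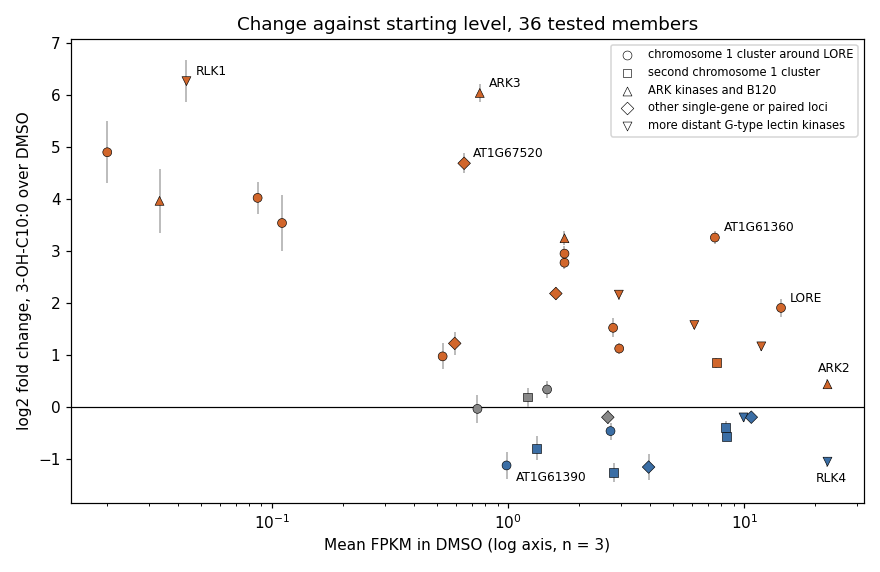
Log2 fold change ± standard error (y axis) against mean FPKM in DMSO (x axis, logarithmic) for the 36 tested members, with the symbol giving the group of members and orange, blue and grey marking higher, lower and not passed. The 5 members at the far left, with means of 0.11 FPKM or less, entered the test through the treated libraries and could hardly have been called anything but higher, so no relation to the starting level is read from the plot.

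Likeness in sequence did not go with likeness in response for every pair. There were 6 pairs in which each gene was the other's closest member by coding sequence with at least 80% identity. AT1G61400 and AT1G61440 were 91.3% identical and had log2 fold changes of 0.33 and 3.53. AT1G61420 and AT1G61460 were 90% identical and had 2.77 and -0.04, and the ratio of their FPKM went from 2.36 ± 0.313 to 16.9 ± 4.11 without overlap between the groups. LORE and AT1G61390 were the 83.8% identical pair with 1.90 and -1.13. ARK1 and ARK2 had 3.96 and 0.43, and AT1G67520 and CES101, 84.3% identical, had 4.68 and 2.18. The pair AT1G11340 and AT1G11410 (81.7%) fell together, by 0.80 and by 1.26 on the log2 scale, and their FPKM ratio overlapped between the groups. For the pairs of LORE, AT1G61420 and AT1G67520 the ratio did not overlap (p = 0.1 for each, two-sided exact permutation test). No test is given for the pairs of AT1G61440 and ARK1, which had few counts in DMSO and entered the test through the treated libraries. In AT1G61400, AT1G61420, AT1G61440 and AT1G61460 between 3.10% and 5.08% of the 50-base words of the exons occur elsewhere in the genome.

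The genes of the LORE array are packed so tightly that the space upstream of several members is another member. Of the 15 cluster members, 8 had fewer than 250 bases between their start and the next annotated gene. For LORE itself the gap to AT1G61390 is 38 bases, and for AT1G61390 to AT1G61400 it is 111 bases. Both are printed because they separate a gene that rose from one that fell and a gene that fell from one that did not pass. They are followed by the 250 bases before ARK3 and RLK1, the members with the highest fitted rises when all libraries are used. Sequences are from TAIR10.1, 5′ to 3′ on the strand of the gene, which is minus for all 4, and capitals mark W-boxes, the sites known to be bound by WRKY transcription factors.
LORE, chr1:22650073-22650110: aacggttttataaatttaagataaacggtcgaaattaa
AT1G61390, chr1:22654396-22654506: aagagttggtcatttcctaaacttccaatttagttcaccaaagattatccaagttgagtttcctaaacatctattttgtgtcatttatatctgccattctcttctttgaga
ARK3, chr4:11393227-11393476: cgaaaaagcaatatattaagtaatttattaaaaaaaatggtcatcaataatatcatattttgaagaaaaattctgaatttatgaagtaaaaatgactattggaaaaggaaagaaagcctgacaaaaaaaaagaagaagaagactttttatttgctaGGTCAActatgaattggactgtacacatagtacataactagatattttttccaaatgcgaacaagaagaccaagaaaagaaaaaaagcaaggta
RLK1, chr5:24501771-24502020: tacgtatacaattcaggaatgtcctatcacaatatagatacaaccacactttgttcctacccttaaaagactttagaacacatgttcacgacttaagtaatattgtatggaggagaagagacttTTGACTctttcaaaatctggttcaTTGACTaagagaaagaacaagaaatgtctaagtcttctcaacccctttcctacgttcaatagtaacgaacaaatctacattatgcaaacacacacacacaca
The motifs searched were TTGACC and TTGACT on both strands, where adjoining matches on a strand can share 1 base, within 250 bases before each gene start, whether or not another gene lies there. At least 1 was found for 17 of the 38 members (44.7%) and for 28.4% of 27444 windows of all protein-coding nuclear genes. Among the members that rose 12 of 22 had one (54.5%, against 35.6% of all loci that rose), and among those that fell 4 of 10 had one (against 23.5% of all loci that fell). LORE has 1 within the 250 bases, inside AT1G61390, and none in the gap. A match describes these letters only.

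Around the receptors, 17 genes that are linked to LORE or to S-domain kinases were read as a list, and 15 of them rose, 1 fell and 1 did not pass, where 35.6% and 35.8% of all loci rose and fell. The median log2 fold change of the list was 1.25. The list was chosen with earlier results of these data known, so these counts support nothing on their own. LORE signals through cytoplasmic kinases of the PBL family, and of the 3 listed as PBL34 to PBL36, 2 rose slightly. AT5G15080 (listed as PBL34) rose from 21.4 to 29.2 CPM and AT3G28690 (PBL36) from 53.6 to 71.5 CPM, with log2 fold changes of 0.45 ± 0.0972 and 0.41 ± 0.0765, while AT3G01300 (PBL35) did not pass (0.05 ± 0.0937, adjusted p = 0.633). PBL1, the close relative of BIK1, rose from 51.1 to 108 CPM (1.08 ± 0.0961). The MAP kinase gene MPK4 rose by 1.11 on the log2 scale. At least an 8-fold rise was seen in 3 of the 17, where 3.96% of all tested loci rose that much.

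The list also held 4 genes for proteins known as partners of S-domain or other receptor kinases. PUB13 and PUB14, ubiquitin ligases of the plant U-box type, rose by 0.77 ± 0.0869 and 1.38 ± 0.101 on the log2 scale. KAPP, a phosphatase that binds the kinase domains of receptor kinases, rose from 25.5 to 36.9 CPM (0.53 ± 0.0971, adjusted p = 5.4e-04). PUB9, the ligase linked to ARK2, had means of 20.5 CPM in DMSO and 16.8 CPM after treatment (-0.29 ± 0.097, adjusted p = 0.0208). DESeq2 did not call it, nor did the fits that left out DMSO replicate 3 or treated replicate 1.

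Tissue markers moved beside these changes. Counts of markers that rose or fell stand beside 35.6% of all tested loci that rose and 35.8% that fell. The summed level of 6 leaf mesophyll markers was 45087 to 49580 CPM in DMSO and 11456 to 16576 CPM after treatment, with 4 of the 6 lower. LHCB1.1 (means of 323 and 165 CPM) and LHCB2.1 (227 and 182 CPM) overlapped between the groups and did not pass. They were a small part of the sum. Of 8 root markers 1 rose and 4 fell, and their sum overlapped between the groups (209 to 227 and 199 to 248 CPM). Most of that sum was PHO1, the one that rose (means of 157 and 197 CPM), while AGP30 went from 16.3 to 0.101 CPM. The sum of 4 guard cell markers, 2 of which fell, was 36 to 38 CPM in DMSO and 26 to 29.2 CPM after treatment. Of 3 vascular markers 1 rose and 2 fell, with sums of 197 to 200 and 294 to 328 CPM. SUC2, the one that rose (177 to 299 CPM), made up most of the sum, against the direction of the others. No marker was at 0 in any library. The part of these shifts in the members' values was not tested.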

How the data were processed

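RNA-seq of 6 libraries was analysed, 3 of DMSO-treated and 3 of 3-OH-C10:0-treated seedlings, grouped by their titles. The estimated counts per locus were made and deposited by the authors without normalisation, per the file headers. Per the submitters' processing notes the build was TAIR10 and the tools included RSEM, StringTie 1.3.1, HISAT2 2.2.4, Bowtie2 2.2.8 and fastp 0.18.0, their roles and the strandedness not being given in the sources used here. Of the counts 3.62% were not whole and all were rounded. FPKM values are the authors' own, per the file headers, and were not rescaled.

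Loci were kept by filterByExpr of edgeR 4.0.16 (minimum count 10; 19768 of 28259), normalised with TMM factors and tested with robust quasi-likelihood fits in R 4.3.3, two-sided. The steps were tested on simulated data. Alternatives were RLE and total-count scaling, no filter, DESeq2 1.42.0, limma 3.58.1 on log2(FPKM + 0.1) or log2(FPKM + 1), a replicate block and each library left out. Folds against a group without counts are bounds against 3 counts over the group.

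Coordinates and sequences are those of the TAIR10.1 assembly and its RefSeq annotation, matched by locus code, since the files hold no coordinates. Identity was computed over aligned bases of the longest coding sequences. Of the members 16 overlap another annotated locus, 13 of them on the opposite strand. The members, their groups and the lists were chosen with earlier results of these data known. Values per library are given for LORE and, in each group, for the members with the highest and lowest log2 fold change and the highest mean FPKM. Others given in full were chosen after their values were seen.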

Additional observations from a re-analysis of the deposited data

How the results depend on the processing

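The 36 tested members gave 468 recomputed results under 13 alternatives, of which 441 kept their direction and their side of the threshold, 25 lost the call and 2 changed sign. The calls lost were those of AT1G61500, SD1-13, AT4G27300 and SD2-5. AT1G61460, which was never called, ran from -0.16 to 0.19 on the log2 scale with single libraries left out, and was above 0 when that library was DMSO replicate 2 (0.11) or treated replicate 3 (0.19). The cause was not tested. The members that rose numbered 22 or 23 in every alternative, and those that fell 7 to 10 (7 to 8 with a library left out). LORE rose in all of them (log2 fold change 1.74 to 2.06), and 15 list genes rose. The count of list genes that fell was 0 in DESeq2 and 0 to 1 with a library left out. Over all loci 6393 to 7226 rose and 6393 to 7754 fell, and the share of calls that were higher lay between 45.3% and 52.5%. On log2(FPKM + 1) the changes of low members were smaller, such as 2.06 for RLK1 and 0.65 for AT1G61610. The same replicate numbers gave deviations that correlated at 0.0264, -0.0159 and 0.0994, so no pairing by number was visible. With 3 libraries a group this cannot exclude a pairing. With the replicate block 22 members rose and 9 fell, and LORE had 1.91. At 3 libraries a group no exact permutation test can go below p = 0.1, and members with fewer than 10 counts in DMSO have poorly known folds.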
